A study of Mus musculus with 8 samples.

Results

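The Runx transcription factors and their common partner Cbfb were read by 9 of the 45101 probe sets in the deposited table. These are the probe sets whose platform annotation names only Runx1, Runx2, Runx3 or Cbfb. Runx1 had 6 probe sets, Runx3 had 2, Cbfb had 1 and Runx2 had 0, so Runx2 was not analysed here. The measurements come from total RNA of mouse origin on 8 Affymetrix expression arrays, which read each transcript with a set of short probes. There were 4 arrays in the group Exp and 4 in the group Ctrl. The labels state neither treatment, genotype, strain, age nor sex for either group, so what sets Exp apart from Ctrl is not known here. One label names the trigeminal ganglion, which holds the sensory neurons of the face, whereas the titles name brain and adrenal medulla. The arrays are numbered 1 to 4 in each group, and nothing states that each holds a separate animal, so the p-values cover the spread among the arrays alone, part of which may be technical.

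Runx proteins bind DNA through a conserved Runt domain, and Cbfb, which does not itself contact DNA, joins each of them and strengthens that binding. In mouse sensory ganglia Runx1 is needed for the maturation of many nociceptive neurons, in which it favours expression of the receptor Ret, and Runx3 is needed for TrkC-positive proprioceptive neurons. Outside the nervous system Runx1 is a regulator of blood formation, Runx2 of bone formation, and Runx3 of T cell development.

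The 3 Runx genes also share a stretch of sequence near a start, the distal one in Runx1 and Runx3. It is shown because the site it holds is the one that Runx proteins themselves recognise. The sequences are RefSeq promoter windows of build GRCm38.p6, each covering 250 bases before and 50 bases after a start, written 5′ to 3′ on the gene's strand. Capitals mark ACCACA, the reverse complement of the Runx motif TGTGGT, which occurs as a pair.
Runx1: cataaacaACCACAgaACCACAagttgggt
Runx2: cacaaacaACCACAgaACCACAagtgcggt
Runx3: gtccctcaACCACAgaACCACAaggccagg
These stretches lie at chr16:92826025-92826054 on the minus strand for Runx1, at chr17:44814583-44814612 on the minus strand for Runx2 and at chr4:135120503-135120532 on the plus strand for Runx3. Counted from 1 at the first base of the gene, the longest run that all 3 share, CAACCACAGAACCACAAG, begins at position 27 in Runx1 and at position 22 in Runx2, and it begins at position -136 in Runx3. Of all 32851 windows of 300 bases, 4 held this run on either strand. These were the windows of the 3 Runx genes and that of Gm16225, which overlaps the Runx3 window and holds the same bases on the opposite strand. The run was chosen as one that the 3 Runx genes share, so its presence in their windows was fixed in advance. The single motif TGTGGT, searched on both strands, occurred in 16.8% of all windows. It occurred 0 times in the window of Cbfb and in the proximal windows of Runx1 and Runx3, which says only that these letters are not in those windows. The GC content was 45.0% in the distal window of Runx1 and 69.0% in its proximal one, 63.7% and 77.3% in those of Runx3, 45.3% in that of Runx2 and 69.7% in that of Cbfb.

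The deposited signals were linear, with an array median between 478 and 553, and the number of arrays limits the precision of every value. Markers were checked against the labelled tissue. All 10 measured sensory neuron markers, among them Pou4f1, Isl1 and Prph, passed the filter on low signals, which removed the lower 40% of probe sets (a signal of about 333). In Exp the signals were 77975 to 98847 for Pou4f1, 57504 to 60957 for Isl1 and 69570 to 83490 for Prph. The dimmest of the 10 was Nefh, at 2174 to 3738. Of the central neuron and astrocyte markers 3 of 7 passed, with Gfap, Tbr1, Olig2 and Gabra6 under the filter. Aqp4, Neurod6 and Slc1a3 passed, with Exp signals of 5299 to 6722, 2259 to 4617 and 845 to 1942. Of the chromaffin, sympathetic and adrenal cortex markers 7 of 9 passed, with Dbh and Phox2a under the filter. Exp signals were 19703 to 20058 for Chgb, 6089 to 6631 for Chga and 4044 to 5635 for Th. Those of Pnmt, Slc18a1, Star and Cyp11a1 reached at most 1193. Th is also among the sensory neuron genes tied to Runx1 that are listed below. Signals of different probe sets have no common scale, so these markers were not used to decide which tissue label is right. Skeletal muscle markers stood apart in Exp 3, where their summed signal was 57275, against 4068 to 18611 in the other Exp arrays and 5822 to 9362 in the Ctrl arrays. Most of the sum in Exp 3 came from Myh3 alone, at 41548. Of the 9 tested muscle markers 8 differences of Exp minus Ctrl were above 0 (median 0.70 on the log2 scale), and of the 8 tested Schwann and satellite glia markers 7 were below 0 (median -0.30), with 0 called in either list. Among the glial markers, 3 had an unadjusted limma p under 0.05, namely Plekhb1 with a difference of -0.53 (SE 0.16), the transcription factor gene Sox10 with -0.33 (SE 0.14) and Egr2, a regulator of myelination, with -2.66 (SE 0.97). The part of these cells in the results was not tested. High Xist signals in Exp 1, Exp 4 and Ctrl 3, and low ones in the others, go with 2 Exp arrays and 1 Ctrl array, and the Y-linked genes Uty, Eif2s3y and Kdm5d were high in the other 5 arrays. Each group therefore held RNA of both patterns, and its arrays were not all made from 1 animal. The part of sex in the results was not tested beyond a fit with the Eif2s3y signal as a term, in which 0 Runx1, Runx3 or Cbfb probe sets were called. In bulk tissue, fewer cells of a type and less RNA per cell cannot be told apart.

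Neither Runx1, Runx3 nor Cbfb differed between Exp and Ctrl beyond the spread between arrays. Of the 9 probe sets, 7 passed the filter, and 0 of these were called by limma at a 5% false discovery rate, where 0.00370% of all 27022 tested probe sets were called. At an unadjusted p under 0.05 the count was also 0 of 7, against 4.69% of all tested probe sets. In 0 of the 7 did the Exp and Ctrl values fail to overlap, against 2.34% of all tested. Relative to Ctrl, the estimates were above 0 in 3 and below 0 in 4 of the 7, with a median difference of -0.14 on the log2(signal + 16) scale, beside a median of -0.0058 over all tested probe sets. For all 7 the 95% confidence interval excluded a change of 2-fold in either direction, as it did for 93.5% of all tested probe sets.

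**Figure D1:**
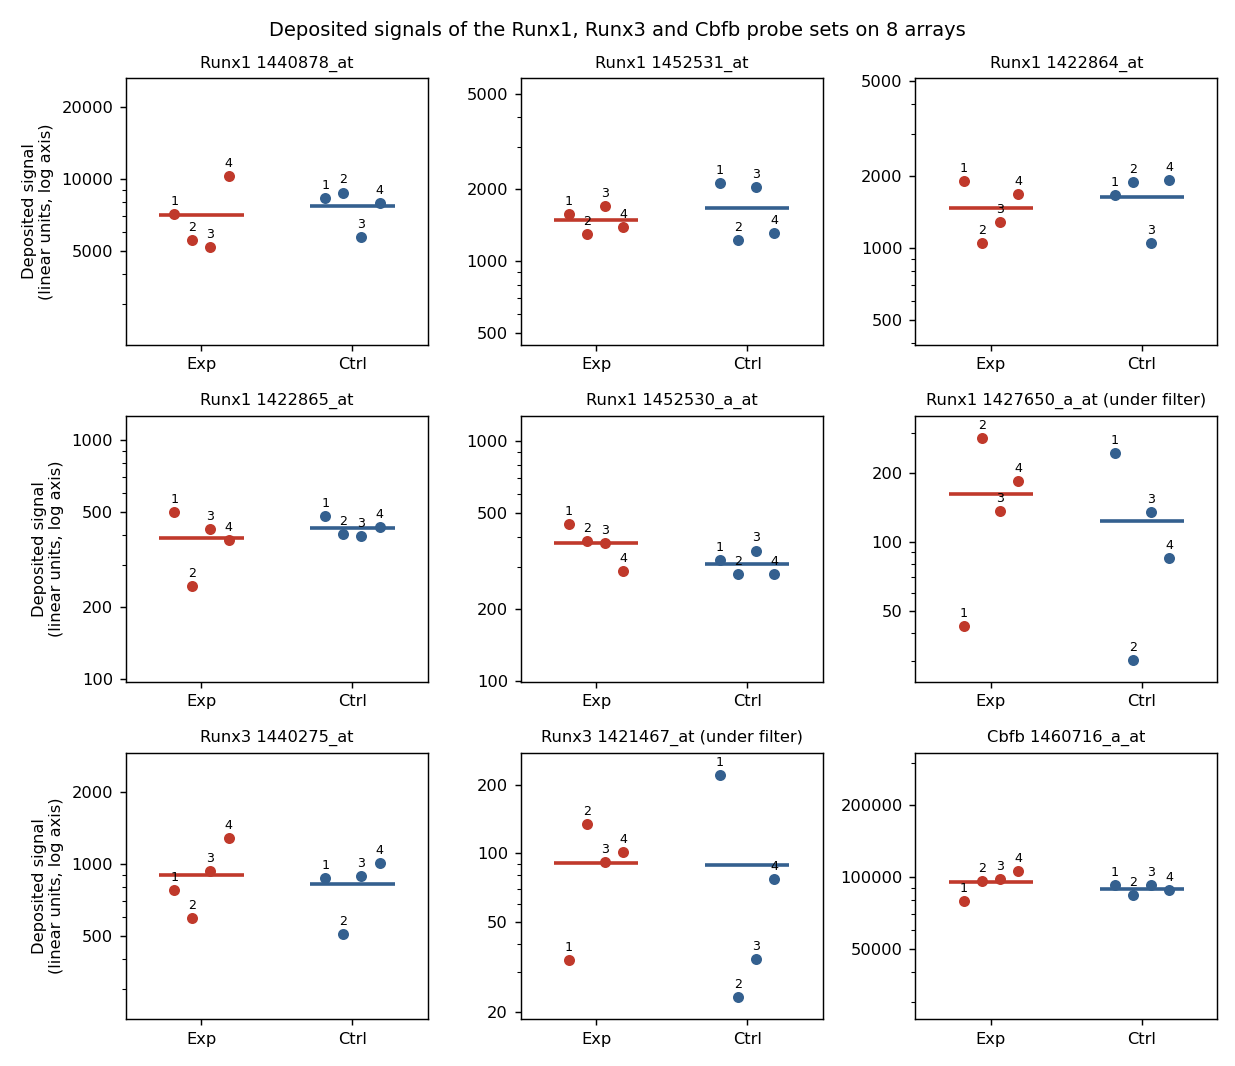
Deposited signal (vertical axis, linear units on a log axis) of each of the 9 probe sets in the Exp arrays (left, red) and the Ctrl arrays (right, blue). Each point is 1 array with its number and each bar the group mean. The vertical range differs between panels, and the 2 groups overlap in every panel.

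Runx1 was represented most brightly by probe set 1440878_at, on whose values the account of this gene chiefly rests. Its signal was 7142, 5579, 5202 and 10270 in Exp 1 to 4, and 8321, 8779, 5742 and 7903 in Ctrl 1 to 4. The groups overlapped, since Exp 4 was the highest array of all, Exp 3 the lowest, and Ctrl 3 lay with the low Exp arrays. On the log2(signal + 16) scale after quantile normalization it averaged 12.7 ± 0.44 in Exp and 12.9 ± 0.27 in Ctrl (SD, n = 4 each). The difference was -0.14 (SE 0.23, limma adjusted p = 0.999), a fold of 0.906 with a 95% confidence interval of 0.634 to 1.30.

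The leukocyte markers, from cells in which Runx1 is also known to act, followed part of that order. All 13 were on the array and 10 passed the filter, with Itgam, Aif1 and C1qc under it. Their summed signal was 37592 in Exp 4 and 22061 in Exp 3, the arrays in which 1440878_at was highest and lowest. It was 22391 in Exp 1 and 26422 in Exp 2, and 27966 to 32508 in the Ctrl arrays, where Ctrl 3, low in 1440878_at, had 32150. Csf1r and Laptm5 made up 74.9% of the sum. The other 11 markers together were also highest in Exp 4, at 8170, and lowest in Exp 3, at 5916, but by small margins. Ctrl 4 had 8030 and Ctrl 2 had 7958, and Exp 1 had 6114. Taken singly, 4 of the 10 that passed were highest in Exp 4 and 4 were lowest in Exp 3. The other tested Runx1 probe sets had neither their highest signal in Exp 4 nor their lowest in Exp 3. The part of these cells in the signal of any Runx1 probe set was not tested.

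The next 2 Runx1 probe sets by brightness gave estimates of nearly the same size. Probe set 1422864_at had signals of 1900, 1053, 1283 and 1679 in Exp 1 to 4, and 1672, 1884, 1047 and 1934 in Ctrl 1 to 4. Exp 2 and Ctrl 3 were its lowest arrays, close to each other, and the other arrays of both groups lay between 1283 and 1934. It averaged 10.5 ± 0.37 in Exp and 10.7 ± 0.42 in Ctrl (SD, n = 4 each), a log2 difference of -0.16 (SE 0.24, limma adjusted p = 0.999). Probe set 1452531_at had signals of 1581, 1302, 1709 and 1388 in Exp, and 2121, 1229, 2041 and 1312 in Ctrl. The Ctrl arrays fell into a high pair, numbers 1 and 3, and a low pair, numbers 2 and 4, and the Exp arrays lay within the range of Ctrl. Its log2 difference was -0.16 (SE 0.19, limma adjusted p = 0.999), and with 1 array left out it lay between -0.27, without Ctrl 2, and -0.047, without Ctrl 1.

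The dimmer Runx1 probe sets pointed in both directions. Probe set 1422865_at had signals of 501, 246, 426 and 383 in Exp, and 482, 405, 397 and 431 in Ctrl. Exp 2 was far below the other 7 arrays, and the group SD was 0.41 in Exp and 0.061 in Ctrl on the log2 scale. The log2 difference was -0.23 (SE 0.19, limma adjusted p = 0.999), and it was -0.042 without Exp 2. Probe set 1452530_a_at, at the 40.3rd percentile of the mean normalized log2 value, lay just inside the filter. It had signals of 453, 384, 378 and 287 in Exp, and 319, 280, 350 and 280 in Ctrl. By deposited signal, 3 Exp arrays were above all Ctrl arrays and Exp 4 was among the Ctrl values. After normalization Exp 4, at 8.15 on the log2 scale, lay below every Ctrl array, the lowest of which was Ctrl 4 at 8.23. The log2 difference was 0.20 (SE 0.16, limma adjusted p = 0.999), the one estimate above 0 among the 5 tested Runx1 probe sets. Without Exp 4 it was 0.33, with an unadjusted limma p of 0.0246 and an adjusted p of 0.9997. Without Exp 1, Exp 2 or Exp 3 the probe set dropped under the filter, and fits without a filter then gave 0.11, 0.18 and 0.17.

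Probe set 1427650_a_at, the sixth of Runx1, was under the filter at the 16.5th percentile. Its signals were 42.9, 286, 137 and 184 in Exp, and 245, 30.5, 135 and 84.9 in Ctrl, a 9.39-fold range over 8 arrays. In a fit without the filter its log2 difference was 0.34 (SE 0.63, limma adjusted p = 0.999). The interval of the fold, 0.466 to 3.46, did not exclude a change of 2-fold.

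The Runx1 probe sets did not order the arrays alike. Among the 5 that were tested, 5 of 10 pairs had a Pearson correlation above 0 over the 8 arrays and 5 below 0, with r between -0.76 and 0.74. Probe sets 1440878_at and 1422864_at had r of 0.74 (Spearman's rho 0.62), both being low in Exp 2, Exp 3 and Ctrl 3. Probe sets 1440878_at and 1452530_a_at had r of -0.76 (rho -0.76). These values describe 8 arrays that share their RNA and normalization across probe sets. Which exons each probe set reads was not analysed here. With a gene's tested probe sets averaged, the log2 difference of Runx1 was -0.097 (SE 0.12, limma adjusted p = 0.994). That average gives the 5 probe sets equal weight, although they disagree. Opposed deviations partly cancel in it, so its SE does not measure the disagreement between probe sets.

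**Figure D2:**
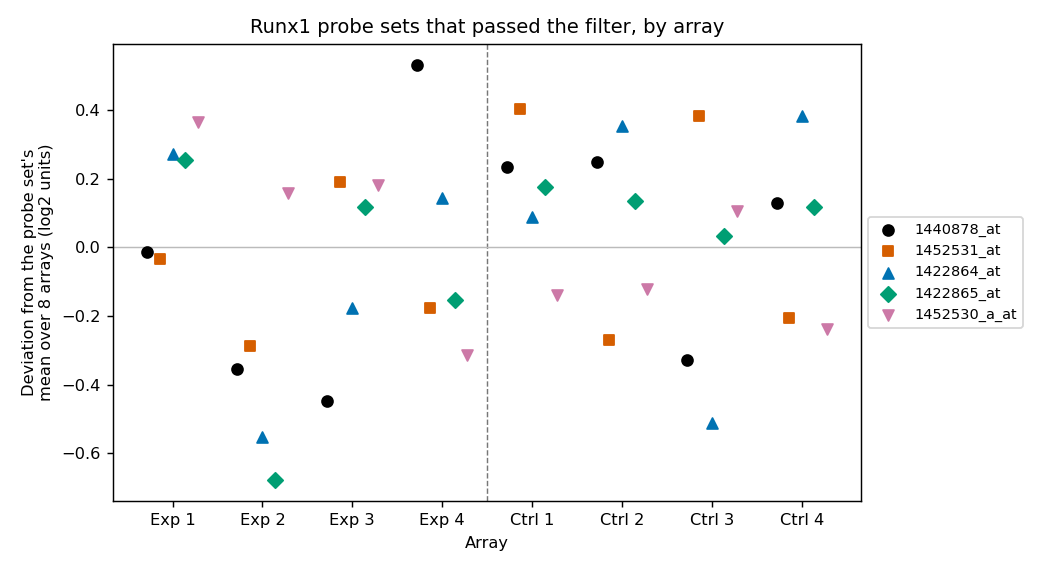
Deviation of each tested Runx1 probe set from its own mean over the 8 arrays (vertical axis, log2 units) in the 4 Exp and the 4 Ctrl arrays. Each point is 1 probe set on 1 array. In Exp 4 the probe set 1440878_at is highest and 1452530_a_at lowest.

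Runx3 was read by 1440275_at above the filter. Its signals were 784, 594, 935 and 1291 in Exp 1 to 4, and 878, 511, 896 and 1009 in Ctrl 1 to 4. In each group array 2 was lowest and array 4 highest, and Exp 4 lay above every Ctrl array and Ctrl 2 below every Exp array, with the other arrays in the shared range. The mean was 9.77 ± 0.48 in Exp and 9.70 ± 0.38 in Ctrl (SD, n = 4 each, log2 scale). The log2 difference was 0.072 (SE 0.26, limma adjusted p = 0.999), a fold of 1.05 with an interval of 0.693 to 1.59, and its direction turned to -0.12 without Exp 4 and to -0.11 without Ctrl 2.

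The other Runx3 probe set, 1421467_at, lay under the filter at the 9.96th percentile. Its signals were 34.0, 134, 91.9 and 102 in Exp, and 222, 23.3, 34.1 and 77.4 in Ctrl. Ctrl 1 was the highest and Ctrl 2 the lowest of all arrays, so the Ctrl range enclosed the Exp range. The log2 difference in the fit without a filter was 0.24 (SE 0.57, limma adjusted p = 0.999), with a fold interval of 0.472 to 2.97. This probe set and the dim 1427650_a_at of Runx1 had r of 0.84 (rho 0.90) over the 8 arrays, both being lowest in Ctrl 2. The 2 Runx3 probe sets had r of 0.25.

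Cbfb, the partner of all Runx factors, had the smallest standard error of the difference among the 9 probe sets. Probe set 1460716_a_at had signals of 79092, 96089, 97765 and 106071 in Exp 1 to 4, and 92340, 83752, 91871 and 88366 in Ctrl 1 to 4. Exp 1 was the lowest array and Exp 4 the highest, so the Exp range enclosed the Ctrl range. The mean was 16.5 ± 0.077 in Exp and 16.5 ± 0.052 in Ctrl (SD, n = 4 each, log2 scale). The log2 difference was 0.012 (SE 0.088, limma adjusted p = 0.999), and the fold of 1.01 had an interval of 0.877 to 1.16, the narrowest of the 9. These values follow quantile normalization. The SE was 0.11 without it and 0.13 with centring on medians. Its mean normalized log2 value was at the 99.8th percentile of all probe sets on these arrays, controls left out. Values on different probe sets are not on a common scale of transcript number, so the signals of Cbfb and the Runx genes are not set against each other.

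**Figure D3:**
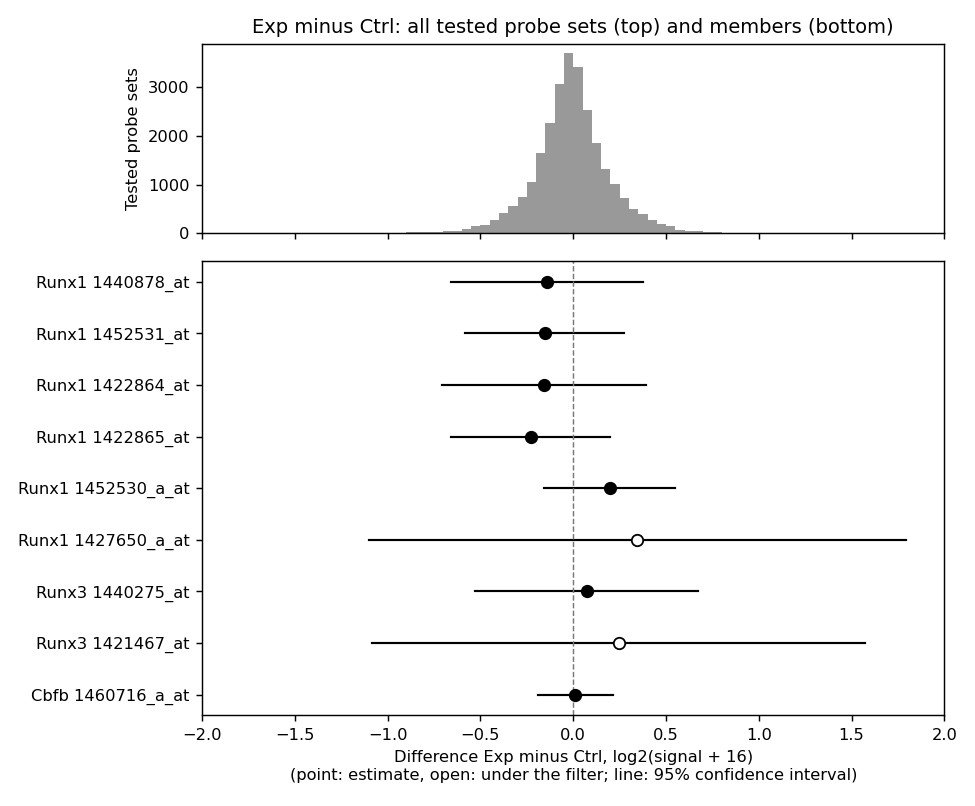
Difference of Exp minus Ctrl (horizontal axis, log2 of signal + 16) for all 27022 tested probe sets as a histogram (top) and for the 9 Runx1, Runx3 and Cbfb probe sets with their 95% confidence intervals (bottom). Open points are under the filter; every interval includes 0, and that of Cbfb is the narrowest.

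In an exact two-sided permutation test over the 70 orders of the arrays (n = 4 per group), the smallest p of the 9 probe sets was 0.286, for 1452530_a_at, where the design allows no p below 0.0286.

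Genes of the Runx pathway were taken from 7 lists, the brightest probe set standing for each gene. No tested member of these lists was called by limma, beside 1 call among 12763 genes so represented. Over those 12763 genes, 45.2% of the differences were above 0, the median was -0.015 and 3.73% had an unadjusted p under 0.05.

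Cofactors, corepressors and modifying enzymes of Runx proteins were all 28 above the filter, of 31 listed. Of these, 0 were called, 0 had an unadjusted limma p under 0.05, 16 differences were above 0 and 12 below, and the median was 0.0088. The smallest p values belonged to Groucho-type corepressors, which bind the C-terminal end of Runx proteins. Tle1 averaged 13.6 ± 0.071 in Exp and 13.4 ± 0.095 in Ctrl, a difference of 0.16 (SE 0.094). Tle3 differed by 0.28 (SE 0.16) and Tle2 by 0.35 (SE 0.22), whereas Tle4 differed by -0.050 (SE 0.15) and Tle5, a shorter member of the family, by -0.091 (SE 0.15). Runx1t1, the corepressor gene fused to RUNX1 in a human leukaemia, differed by -0.17 (SE 0.14), and none of these passed.

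Regulators that act upstream in the sensory ganglion had 13 of 17 measured genes above the filter, of 19 listed. Of the 13, 0 were called, 1 had an unadjusted p under 0.05, 7 were above 0 and 6 below, and the median was 0.00092. Klf7, a zinc finger factor of sensory neuron survival, averaged 15.6 ± 0.11 in Exp and 15.3 ± 0.13 in Ctrl (SD, n = 4 each), a difference of 0.29 (SE 0.11) that did not pass (limma adjusted p = 0.999). Pou4f3 differed by -0.34 (SE 0.18) and the homeobox gene Six4 by -0.23 (SE 0.14), and neither passed. Pou4f1, a factor of sensory neuron differentiation, differed by 0.083 (SE 0.091).

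Sensory neuron genes tied to Runx1 in the mouse had 14 of 19 measured genes above the filter, of 26 listed. The list was not divided by direction of regulation, so its counts and median test no expected direction. Of the 14, 0 were called and 0 had an unadjusted limma p under 0.05. Their differences ran from -0.074 to 0.17 with a median of 0.037, 10 above 0 and 4 below. Gfra2, the neurturin co-receptor that pairs with Ret, averaged 14.0 ± 0.090 in Exp and 13.9 ± 0.13 in Ctrl, a difference of 0.16 (SE 0.10). Met, the receptor for hepatocyte growth factor, differed by 0.12 (SE 0.22) and Gfra1, another co-receptor of Ret, by -0.051 (SE 0.10). Ret itself differed by 0.056 (SE 0.15), and the sodium channel gene Scn11a by 0.17 (SE 0.38). The thermoreceptor channel genes Trpm8 and Trpa1 were under the filter, and so were Calcb, Oprm1 and Gna14. The motif TGTGGT was found in the promoter windows of 1 of the 18 listed genes that have one, or 5.56%, beside 18.9% of all genes. The motif shares of this list and of the Runx3 and Runx2 lists below were not tested. A motif in a window does not show that a Runx protein binds there, and sites outside the windows were not searched.

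Of the genes tied to Runx3 in proprioceptive neurons, 4 of 5 measured genes were above the filter, of 7 listed. None of the 4 was called and 0 had an unadjusted limma p under 0.05, with 1 difference above 0, 3 below and a median of -0.055. Ntrk3, the gene of TrkC, averaged 11.4 ± 0.25 in Exp and 11.6 ± 0.22 in Ctrl (SD, n = 4 each), a difference of -0.23 (SE 0.16). Pvalb, a calcium-binding protein of large sensory neurons, differed by -0.092 (SE 0.14). Ntrk2, the gene of TrkB, which Runx3 represses in the mouse, differed by 0.044 (SE 0.17). The motif TGTGGT was found in the promoter windows of 3 of the 6 listed genes that have one, beside 18.9% of all genes. With so few genes this share is a description only.

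Bone and cartilage genes, which stand downstream of Runx2 or beside it, had 8 of 18 measured genes above the filter, of 20 listed. Of the 8, 0 were called by limma, 1 had an unadjusted p under 0.05, 5 were above 0 and 3 below, and the median was 0.090. Col2a1, the collagen of cartilage, averaged 8.71 ± 0.34 in Exp and 9.18 ± 0.24 in Ctrl, a difference of -0.47 (SE 0.19, limma adjusted p = 0.999). Alpl, alkaline phosphatase, differed by 0.32 (SE 0.24) and Acan, the cartilage proteoglycan, by 0.18 (SE 0.16). Dlx5, Ibsp, Col10a1 and Mmp13 were among the 10 under the filter. The motif TGTGGT was found for 3 of 13 listed genes with a promoter window, or 23.1%, beside the same 18.9%.

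The partners of Runx1 in blood formation had 7 of 10 genes above the filter, with 0 called, 2 at an unadjusted p under 0.05, 1 above 0 and 6 below, and a median of -0.087. Ets1, which binds DNA together with Runx1, averaged 11.9 ± 0.35 in Exp and 11.3 ± 0.42 in Ctrl, a difference of 0.58 (SE 0.24). Lmo2, an adaptor of blood and endothelial transcription complexes, differed by -0.37 (SE 0.16), and Myb by -0.25 (SE 0.32). All 3 had a limma adjusted p of 0.999.

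Leukocyte, macrophage and megakaryocyte markers had 15 of 22 measured genes above the filter, of 23 listed. Here 12 of the 15 differences were below 0 and 3 above, with a median of -0.25, the farthest from 0 of the 7 pathway lists but nearer to 0 than the medians of the glial and muscle markers, and 3 had an unadjusted p under 0.05, but limma called 0. Ptprc, the pan-leukocyte phosphatase CD45, averaged 9.88 ± 0.14 in Exp and 10.2 ± 0.15 in Ctrl (SD, n = 4 each), a difference of -0.34 (SE 0.12, limma adjusted p = 0.999). Tyrobp, a myeloid signalling adaptor, differed by -0.48 (SE 0.20) and Cd8a by -0.34 (SE 0.15). The 3 above 0 were Fcer1g, at 0.32 (SE 0.15), C1qa, at 0.11 (SE 0.21), and Cd68, at 0.070 (SE 0.12). Of the genes under the filter, Cd3e and Cd3g had estimates above 0 in the fit without a filter. Those of Itgam, Aif1, C1qc, Cd79a and Mpo were below 0. The summed signal of the 22 genes was 27548 to 43306 in Exp and 35802 to 40152 in Ctrl, so the groups overlapped.

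**Figure D4:**
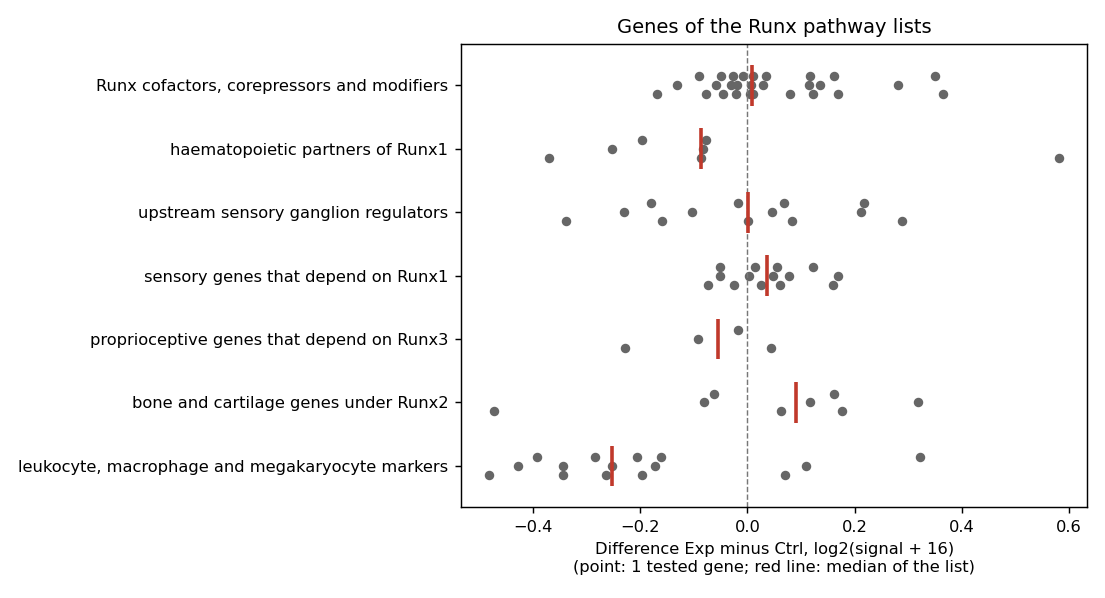
Difference of Exp minus Ctrl (horizontal axis, log2 of signal + 16) of every tested gene in the 7 Runx pathway lists, 1 point per gene, with the median of each list as a red line. The medians run from -0.25 for the leukocyte, macrophage and megakaryocyte markers to 0.090 for the bone and cartilage genes, and no point was called by limma.

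Likeness to Runx1, Runx3 and Cbfb was measured as Pearson's r over the 8 arrays against 12760 other genes, and it is given as a description, since the arrays are few and the genes many. For Runx1 (1440878_at) the closest were Klhl6, with r of 0.95 (rho 0.90), and Mrpl11, a mitochondrial ribosomal protein gene, with r of 0.93 (rho 0.95). The 99th percentile of r was 0.77 for this probe set. For Runx3 (1440275_at) the closest were Has2, a hyaluronan synthase, with r of 0.98 (rho 0.98), and Rasd2, a Ras-related GTPase, with r of 0.98 (rho 0.93). For Cbfb the closest were the mechanosensory channel gene Piezo2, with r of 0.98 (rho 0.95), and Zfand2a, with r of 0.98 (rho 0.90). The signal of Piezo2 ran from 2895 to 8077 in Exp and from 3682 to 6454 in Ctrl, a wider relative range than that of Cbfb. Between the brightest probe sets of Runx1, Runx3 and Cbfb themselves, r was 0.26 for Runx1 with Runx3, 0.028 for Runx1 with Cbfb and 0.18 for Runx3 with Cbfb.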

How the data were processed

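The authors deposited 1 linear intensity for each probe set on each array. For the method behind it, the sources used here give nothing. Trimmed by 2% at each end, the mean intensity came to 2500 on all 8 arrays, so differences in total signal are not visible. No detection call or background was used. After removal of 64 control probe sets, log2(signal + 16) was quantile normalized. The filter left out probe sets with a mean normalized log2 value below the 40th percentile, and Exp was compared with Ctrl over the 27022 others by limma 3.58.1 (lmFit, eBayes) in R 4.3.3 in two-sided tests, adjusted by Benjamini-Hochberg across the whole set. Members under the filter were given the fit without a filter. The written design fixed neither the scale of the mean used in the filter nor whether controls leave before normalization. A first version took the mean linear signal and kept the controls in the normalization; both were changed after its results had been seen, to match the earlier processing of these data. Under that first version 6 member probe sets were tested in place of 7, 1452530_a_at being left out, and 0 were called. The fit was tested on simulated data. Groups and numbers came from the sample titles. Same-numbered arrays did not deviate together (r between -0.12 and 0.050), so numbers were not taken as pairs.

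Gene names came from the platform annotation, updated by Entrez identifier through the RefSeq table of GRCm38.p6. Of 45037 probe sets, 34945 carried 1 name, 932 several and 9160 none. The members and lists were chosen with earlier results of these data known. Named were each member, up to 3 genes per list with the smallest p, and the 2 genes closest to each member gene. Added after their values were seen were Tle4, Tle5, Runx1t1, Pou4f1, Ret, Scn11a, Fcer1g, C1qa, Cd68 and the genes named as under the filter. The central neuron and adrenal markers that passed, and Nefh, were also named after their values were seen. Alternatives covered the pseudocount, filter, normalization, replicate block, variance model, array weights, sex, probe set averaging and leaving out each array. Figures were drawn with matplotlib 3.10.9.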

Additional observations from a re-analysis of the deposited data

How the results depend on the processing

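The count of called Runx1, Runx3 and Cbfb probe sets was 0 under every alternative run, with the replicate block included (0 of 7), and over 177 recomputed member differences the smallest limma adjusted p was 0.854. The count over all tested probe sets was 1, and it was 0 without a filter, with a filter at the 60th percentile, with the replicate block, with Eif2s3y as a term for sex, and in 7 of the 8 fits without 1 array (range 0 to 1); the cause was not tested. Of the 177 differences, 168 kept their direction and 9 turned, each from an estimate whose interval included 0. The 3 further alternatives chosen after seeing the data (the filter on mean linear signal, controls kept in the normalization, and both) each gave 1 call over all tested probe sets and 0 among the members, and turned no direction. Array weights turned 1440275_at of Runx3 to -0.038 and Cbfb to -0.0076, whereas Cbfb came to 0.082 (SE 0.11) without quantile normalization and to 0.033 (SE 0.13) with centring on medians. Over the fits without 1 array, the differences ran from -0.35 to 0.0015 for 1422864_at (turned without Exp 2), from -0.083 to 0.80 for 1427650_a_at and from -0.089 to 0.74 for 1421467_at (both turned without Ctrl 2), from -0.12 to 0.26 for 1440275_at (turned without Exp 4 or Ctrl 2) and from -0.014 to 0.048 for Cbfb (turned without Exp 4 or Ctrl 4). Leaving out 1 array moved the estimate of 1440878_at between -0.34 and -0.016, and that of 1452531_at between -0.27 and -0.047. For 1452530_a_at 5 of these 8 fits could be had under the filter (0.15 to 0.33), and the other 3, run without a filter as a choice made after seeing the data, gave 0.11 to 0.18. Probe sets of low signal are limited by their spread between arrays: neither of the 2 under the filter had an interval that excluded a change of 2-fold.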
